A study of Mus musculus with 10 samples.

Results

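Gene expression was compared directly between NG4 cells that received siRNA against Socs3 and NG4 cells that received siRNA against Fbxw7. NG4 is a mouse embryonic stem cell line. The comparison takes the 2 arrays titled siSocs3 and the 2 titled siFbxw7, 4 of the 10 arrays of the series, and every gene that the array names. The other 6 arrays are 2 each of siNonTarget (an siRNA without a target), siSox17 and siRnf31. All 5 groups, siNonTarget included, share the rest of the treatment: the siRNA was given as the cells were plated, retinoic acid made them differentiate, and total RNA was taken 48 h after transfection. Each group differs from the others only in the siRNA named by its label. Whether the 2 replicates of a group are separate cultures is not said in the labels; p-values then measure only how far these samples spread, and that spread may be technical. An array reads the RNA of all cells together, so fewer cells of a type and less RNA per cell cannot be told apart.

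Mouse embryonic stem cells are held in the naive pluripotent state by the cytokine LIF. LIF binds LIFR and gp130, JAK kinases phosphorylate STAT3, and STAT3 drives Klf4, Tfcp2l1 and other factors of self-renewal; SOCS3 is induced by STAT3 and shuts the receptor off again. FBXW7 is the part of an SCF ubiquitin ligase that recognises its targets, and it marks phosphorylated proteins such as cyclin E, MYC, JUN and NOTCH for the proteasome, so its substrates are set at the protein level. Retinoic acid binds RAR and RXR receptors, which sit on response elements near HOX and retinoid metabolism genes, and it moves stem cells towards neural and endodermal fates.

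Array medians lay between 46.39 and 47.95 intensity units, and 18194 genes were tested. Across genes each siSocs3 array was nearest to the other (r = 0.9972), but siFbxw7 replicate 1 was closest to siNonTarget replicate 1 (r = 0.9974) and siFbxw7 replicate 2 to siSox17 replicate 2 (r = 0.9978), against r = 0.9935 between the 2 siFbxw7 arrays. The siFbxw7 replicates were 2-fold or more apart in 208 genes and the siSocs3 replicates in 13. The log2 difference between the 3' and 5' actin probe sets, a measure of RNA integrity, was 0.60 on siFbxw7 replicate 1 and 0.50 on siNonTarget replicate 1, and 0.21 to 0.29 on the other 8 arrays. Its part in the results was not tested, and counts are also given without those 2 arrays. The stem cell label was checked on 7 markers (Pou5f1, Sox2, Nanog, Zfp42, Utf1, Dppa4, Sall4), whose group means were log2 9.40 to 12.07 in siFbxw7 and 10.30 to 12.79 in siSocs3.

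Throughout, levels are log2 intensities, and differences are siSocs3 minus siFbxw7 on the log2 scale with the standard error of the model (n = 2 arrays per group). Neither targeted transcript separated the groups past the threshold. Socs3 read 10.07 and 9.80 in siFbxw7 against 10.66 and 10.11 in siSocs3. Socs3 was thus not lower on the arrays labelled siSocs3 (0.45 ± 0.24, adjusted p = 0.358). Its other probe sets gave 0.51 ± 0.19 and 0.50 ± 0.19, also above 0. Fbxw7 read 9.04 and 9.28 in siFbxw7 against 9.44 and 9.60 in siSocs3, without overlap but short of the threshold (0.36 ± 0.15, adjusted p = 0.265). A different probe set for Fbxw7 had 0.46 ± 0.29. Transcript levels therefore do not check the label siSocs3 and do not settle the label siFbxw7. Every direction below rests on those labels. Of the targets of the other siRNAs, Sox17 differed by -0.57 ± 0.53 and Rnf31 by 0.25 ± 0.17, and neither passed.

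All 9 measured genes of the 2-cell-stage embryo were higher on the siSocs3 arrays, as were 7 of 20 naive pluripotency genes and 4 of 11 PRAME-like genes. Lower calls were made for 8 of 33 HOX genes, 5 of 22 retinoid genes and 5 of 23 neuronal genes, with 1 higher call in each of these 3 lists, and the other members did not pass. Of 18194 genes, 638 passed the test (3.51%; limma, Benjamini-Hochberg adjusted p under 0.05), 381 higher in siSocs3 (2.09%) and 257 lower (1.41%). Rises were the larger changes: 181 of the 381 and 69 of the 257 were at least 2-fold, and 53 against 6 were at least 4-fold. The arrays of the 2 groups did not overlap in any called gene. That alone sets no gene apart, since they also did not overlap in 25.1% of all genes in the higher direction and 24.5% in the lower.

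**Figure D1:**
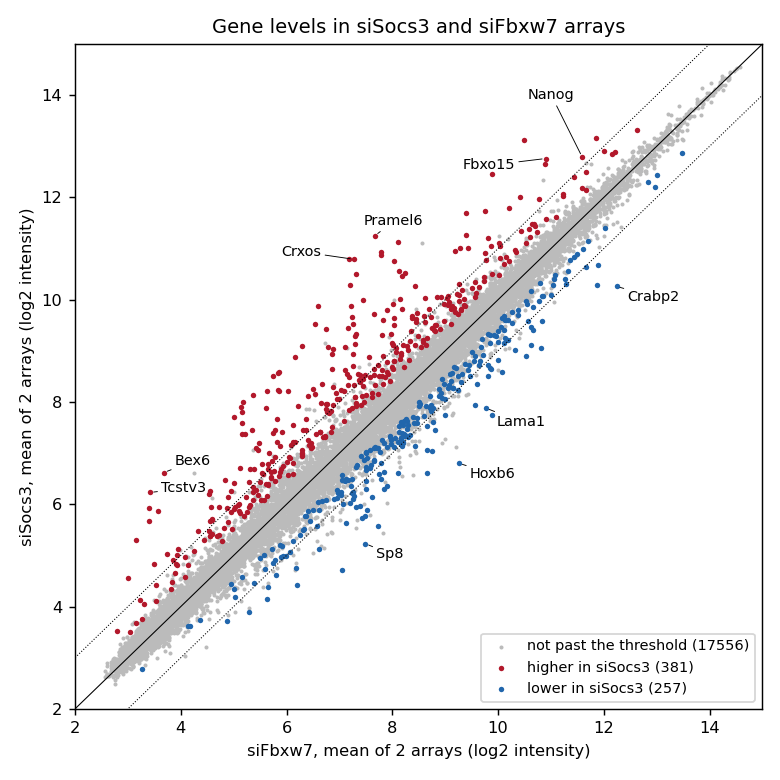
Mean log2 intensity of each gene on the 2 siFbxw7 arrays (horizontal axis) and the 2 siSocs3 arrays (vertical axis); the solid line marks equal levels and the dotted lines 2-fold differences. The 381 genes higher in siSocs3 (red) reach farther from the line than the 257 lower genes (blue), and 17556 genes did not pass (grey).

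The other 6 arrays show on which side of the pair a gene moved. Of the 381 higher genes, 374 had both siSocs3 arrays above the other 8 arrays, a position held by 11.3% of all genes, and 38 had both siFbxw7 arrays below the other 8, held by 1.19% of all genes. For the 257 lower genes, 241 had both siSocs3 arrays below the other 8 (10.4% of all genes), and 22 had both siFbxw7 arrays above the other 8 (1.74% of all genes). A gene's position uses the same 4 arrays as its call, so these shares describe the calls and are no separate test. Against siNonTarget, which shares these arrays, the median difference of the 381 genes was 0.94 in siSocs3 and -0.09 in siFbxw7, and that of the 257 genes was -0.82 and -0.05. No gene passed for siFbxw7 against siNonTarget, siSox17 or siRnf31 (0 genes each in limma, with 1174, 1017 and 945 at an unadjusted p under 0.05), while 1684 passed for siSocs3 against siNonTarget.

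The number of calls depended on single arrays. For siNonTarget, siSox17 and siRnf31, leaving out either array of the group gives the same fit of this pair. Such a fit changes the error of a difference and not its size. The 10 fits with an array left out thus hold repeats, and counts of fits are no count of separate checks. Without siSocs3 replicate 1, 78 genes were higher and 3 lower, and without siSocs3 replicate 2 they were 204 and 88. Leaving out siFbxw7 replicate 1 gave 141 higher and 40 lower, and leaving out siFbxw7 replicate 2 gave 460 and 438. The fits without 1 siSox17 array gave 275 and 132. Without siFbxw7 replicate 1 and siNonTarget replicate 1, the arrays of high actin difference, 156 were higher and 62 lower. Among genes called lower, siFbxw7 replicate 1 read above replicate 2 in 75.9%, against 49.1% of all genes. With each of the 10 arrays left out in turn, 75 higher genes passed every time, but only 3 lower genes did: Cpe (-1.26 ± 0.14), a peptide-processing carboxypeptidase, Pgm2l1 (-0.88 ± 0.10), a glucose-1,6-bisphosphate synthase, and Vopp1 (-1.06 ± 0.11).

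**Figure D2:**
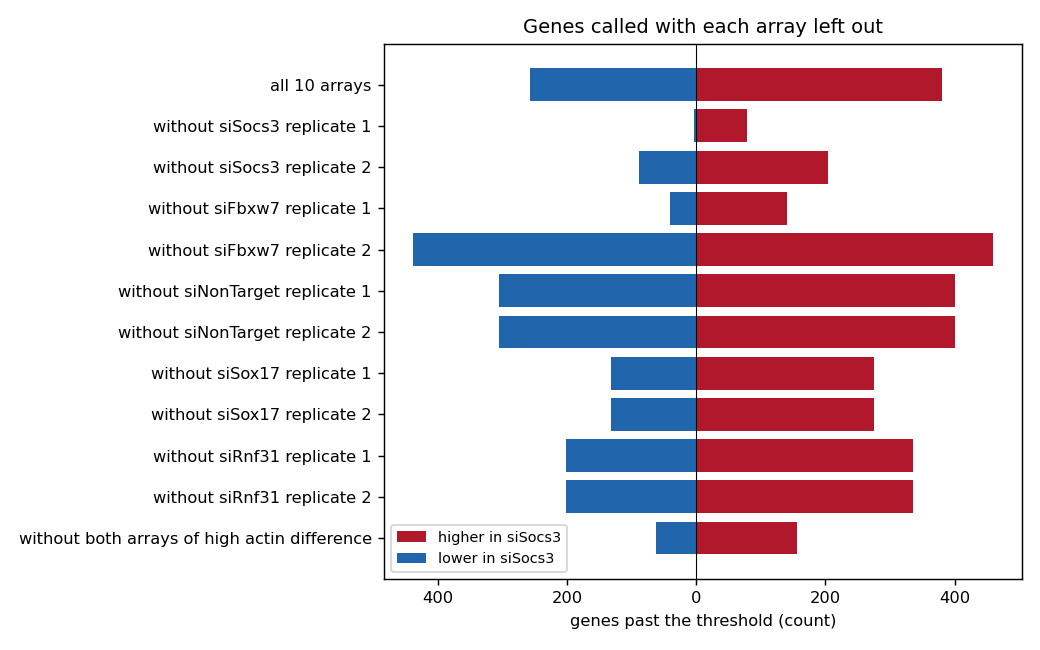
Genes past the threshold in siSocs3 against siFbxw7 (count; lower to the left, higher to the right) with all 10 arrays, with each array left out, and without both arrays of high actin difference. Both bars are shortest without siSocs3 replicate 1 (78 higher, 3 lower), and the lower bar is longest without siFbxw7 replicate 2 (438).

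Genes of the 2-cell-stage embryo showed the largest and most uniform difference. All 9 measured members of the list of 24 passed, all higher, with a median of 2.65 against 0.00 over all genes. These genes are active when the mouse embryo switches on its own genome, and a small share of cultured stem cells passes through a like state. Trim43a, a tripartite motif gene of the early embryo, read 6.46 and 6.72 in siFbxw7 against 10.20 and 9.57 in siSocs3. For Trim43a the groups lay several times farther apart than their replicates (3.29 ± 0.32, adjusted p = 0.00185). Ubtfl1, an HMG-box gene of the preimplantation embryo, read 7.42 and 7.21 against 10.78 and 10.22 (3.18 ± 0.36, adjusted p = 0.00299). Tcstv3 lay near the bottom of the scale on the siFbxw7 arrays, at 3.25 and 3.59, and at 6.39 and 6.07 on the siSocs3 arrays (2.81 ± 0.21, adjusted p = 0.00114). Only 6.37% of genes had a lower mean in siFbxw7 than Tcstv3, and no detection call was used, so its level there may be background and the difference may understate the change. Obox6, an oocyte homeobox gene, read 5.22 and 5.08 against 7.95 and 7.65, and the zinc finger gene Zfp352 read 7.23 and 7.20 against 10.03 and 9.71 (2.65 ± 0.27 and 2.65 ± 0.31). Usp17la, a deubiquitinase gene, was already bright in siFbxw7, at 9.94 and 9.82, and reached 12.50 and 12.39 (2.56 ± 0.26). The 3 members outside the rule for named genes were Tcstv1 (2.53 ± 0.24), Tdpoz1 (1.71 ± 0.24) and Duxf3 (0.57 ± 0.13, adjusted p = 0.0475), a DUX homeobox factor that switches on other genes of this stage. Without siSocs3 replicate 1, 6 of the 9 passed, and 8 passed without either of the other 3 arrays of the pair and without both arrays of high actin difference. Most of these genes have close copies in the mouse genome, which their probe sets may also read.

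The PRAME-like genes, a multigene family of leucine-rich repeat proteins of the germline and early embryo, were split. Of 11 measured members of the 60 listed, 4 were higher and 7 did not pass, with a median of 0.48. Pramel6 had the largest rise of all named genes, from 7.83 and 7.52 to 11.35 and 11.15 (3.58 ± 0.50, 12.0-fold, adjusted p = 0.00683). Pramel7, which lowers DNA methylation in stem cells by removing UHRF1, read 6.96 and 7.43 against 10.32 and 10.26 (3.10 ± 0.40). Pramel18 read 7.67 and 7.90 against 11.17 and 10.56 (3.08 ± 0.35), and Pramel12 differed by 0.90 ± 0.20. The 7 that did not pass ran from -0.04 (Pramel27) to 0.88 ± 0.26 (Pramel13). Without siSocs3 replicate 1, 1 member passed. None of 15 DNA methylation genes passed in limma (3 at an unadjusted p under 0.05), with Dnmt3b at 0.43 ± 0.15 and Tet3 at -0.46 ± 0.14.

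Other large rises belonged to no list. Crxos, a homeobox gene of stem cells and the early embryo, read 6.91 and 7.63 in siFbxw7 against 11.25 and 10.34 in siSocs3 (3.52 ± 0.45, 11.5-fold). Bex6 went from 3.56 and 3.79 to 7.30 and 5.94 (2.95 ± 0.35), with the 2 siSocs3 arrays far apart but both above siFbxw7. Its siFbxw7 level is also low, with 10.1% of genes below Bex6, so the same limit holds. Spesp1, a protein of the sperm equatorial segment, differed by 2.72 ± 0.26 and the leucine zipper factor Spz1 by 2.77 ± 0.35. The remaining members of the 15 largest rises, clone names left out, were Sp110, a nuclear body protein (2.81 ± 0.40), the chemokine Ccl3 (2.77 ± 0.35), the acetyltransferase Nat8f2 (2.76 ± 0.36), Speer4cos (2.73 ± 0.33) and Fam90a1a (2.69 ± 0.43). Both siSocs3 arrays lay above the other 8 arrays in each of these 15 genes. Of 24 germline genes 3 were higher: Dazl, an RNA-binding protein of germ cells (1.31 ± 0.22), Stk31 (1.04 ± 0.16) and Tex101 (0.86 ± 0.16), with a list median of 0.04.

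**Figure D3:**
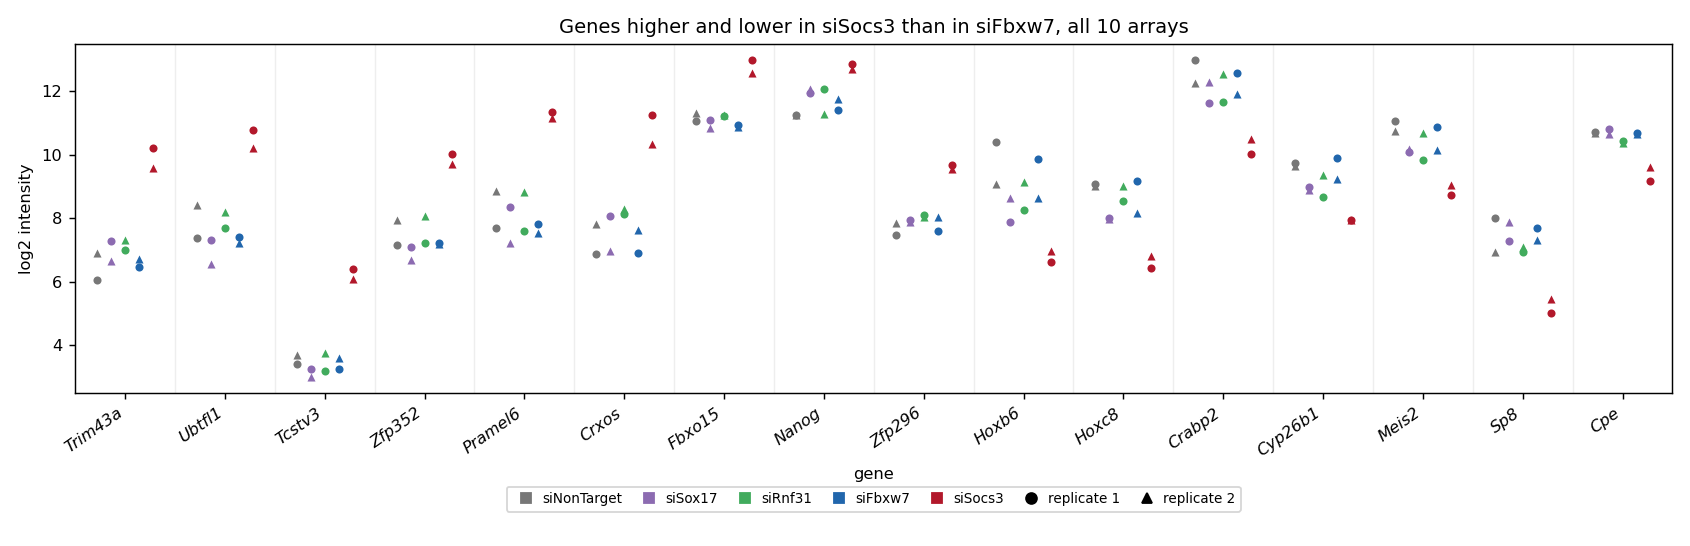
Log2 intensity of 16 named genes on all 10 arrays, coloured by siRNA group, with circles for replicate 1 and triangles for replicate 2. In the 9 genes on the left the siSocs3 arrays lie above the other 8, and in the 7 on the right they lie below them; Hoxb6 also spreads widely among the other arrays.

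Of 20 naive pluripotency genes 7 were higher on the siSocs3 arrays, none was lower and 13 did not pass. The median was 0.80, and estimates were above 0 in 18. Fbxo15, an F-box gene driven by OCT4 and SOX2, read 10.94 and 10.86 against 12.97 and 12.56 (1.86 ± 0.16, adjusted p = 0.00129). It passed with any of the 10 arrays left out. Nanog, a central factor of self-renewal, read 11.42 and 11.76 against 12.87 and 12.71 (1.20 ± 0.22, adjusted p = 0.0246). Nr5a2, a nuclear receptor that binds the Pou5f1 gene, differed by 1.33 ± 0.23, Dppa3 by 1.30 ± 0.25, the adhesion gene Jam2 by 1.21 ± 0.21, the factor Prdm14 by 1.05 ± 0.14 and Klf2 by 0.81 ± 0.16. The groups also did not overlap in Esrrb, at 8.80 and 9.03 against 9.98 and 9.85, but its difference fell short (1.0 ± 0.23, adjusted p = 0.0533). Klf4 (0.79 ± 0.35), Tfcp2l1 (0.91 ± 0.26) and Zfp42 (0.72 ± 0.17) did not pass either. Klf4 read 9.72 on siFbxw7 replicate 1 and 10.50 on replicate 2, against 11.12 and 10.68 in siSocs3. In 18 of the 20 genes siFbxw7 replicate 1 read below replicate 2. The count of 7 became 8 without siFbxw7 replicate 2, 3 without siSocs3 replicate 2, and 1 without siFbxw7 replicate 1, without siSocs3 replicate 1 or without both arrays of high actin difference.

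The core factors of pluripotency differed less. Pou5f1 read 11.83 and 12.30 against 12.53 and 12.63 (0.51 ± 0.32, adjusted p = 0.452), and Sox2 read 11.42 and 11.13 against 11.44 and 11.39 (0.14 ± 0.14), so Sox2 overlapped between the groups. Of 19 core genes 4 passed, all higher. Zfp296, a zinc finger factor of stem cells, read 7.60 and 8.05 against 9.67 and 9.54 (1.78 ± 0.17, adjusted p = 0.00185), and its call held with any array left out. Tdgf1, the Nodal co-receptor Cripto, differed by 1.60 ± 0.33, Dppa2 by 0.69 ± 0.12 and Sall4 by 0.48 ± 0.10. The median of the core list was 0.24. The fits without siSocs3 replicate 1, siSocs3 replicate 2 or siFbxw7 replicate 1 each called 1 core gene. None of 14 formative and primed pluripotency genes passed in limma (4 at an unadjusted p under 0.05; median -0.36). Fgf5, the usual marker of the primed state, was dim in both groups, at 4.96 and 4.49 against 4.80 and 4.55.

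Of 20 trophectoderm genes, which mark the outer cells of the blastocyst and the placenta, 3 were higher and none lower, with a median of 0.70. Plac1, a placental gene, read 5.76 and 5.94 against 8.15 and 8.29 (2.37 ± 0.27, adjusted p = 0.00299). The factors Tfap2c and Ascl2 differed by 1.36 ± 0.28 and 1.35 ± 0.24. Keratin 7 had a difference as large as that of Plac1 but a wide error (Krt7, 2.42 ± 0.57, adjusted p = 0.0569), with 6.15 and 7.31 on the siFbxw7 arrays against 9.10 and 9.19. The trophoblast markers Elf5 (0.16 ± 0.13) and Tpbpa (0.09 ± 0.15) did not pass. Over the 5 fixed trophoblast markers (Cdx2, Elf5, Krt7, Gata3, Tpbpa), the summed intensity was 335 to 544 in siFbxw7 and 937 to 1116 in siSocs3, and none of the 5 passed. The brightest of the 5 had a group mean of log2 7.19 in siFbxw7 and 9.14 in siSocs3, so the sums lean on bright markers such as Krt7. Without siFbxw7 replicate 1, siSocs3 replicate 1 or siSocs3 replicate 2, 1 gene of the list passed, and without siFbxw7 replicate 2 the list had 5.

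**Figure D4:**
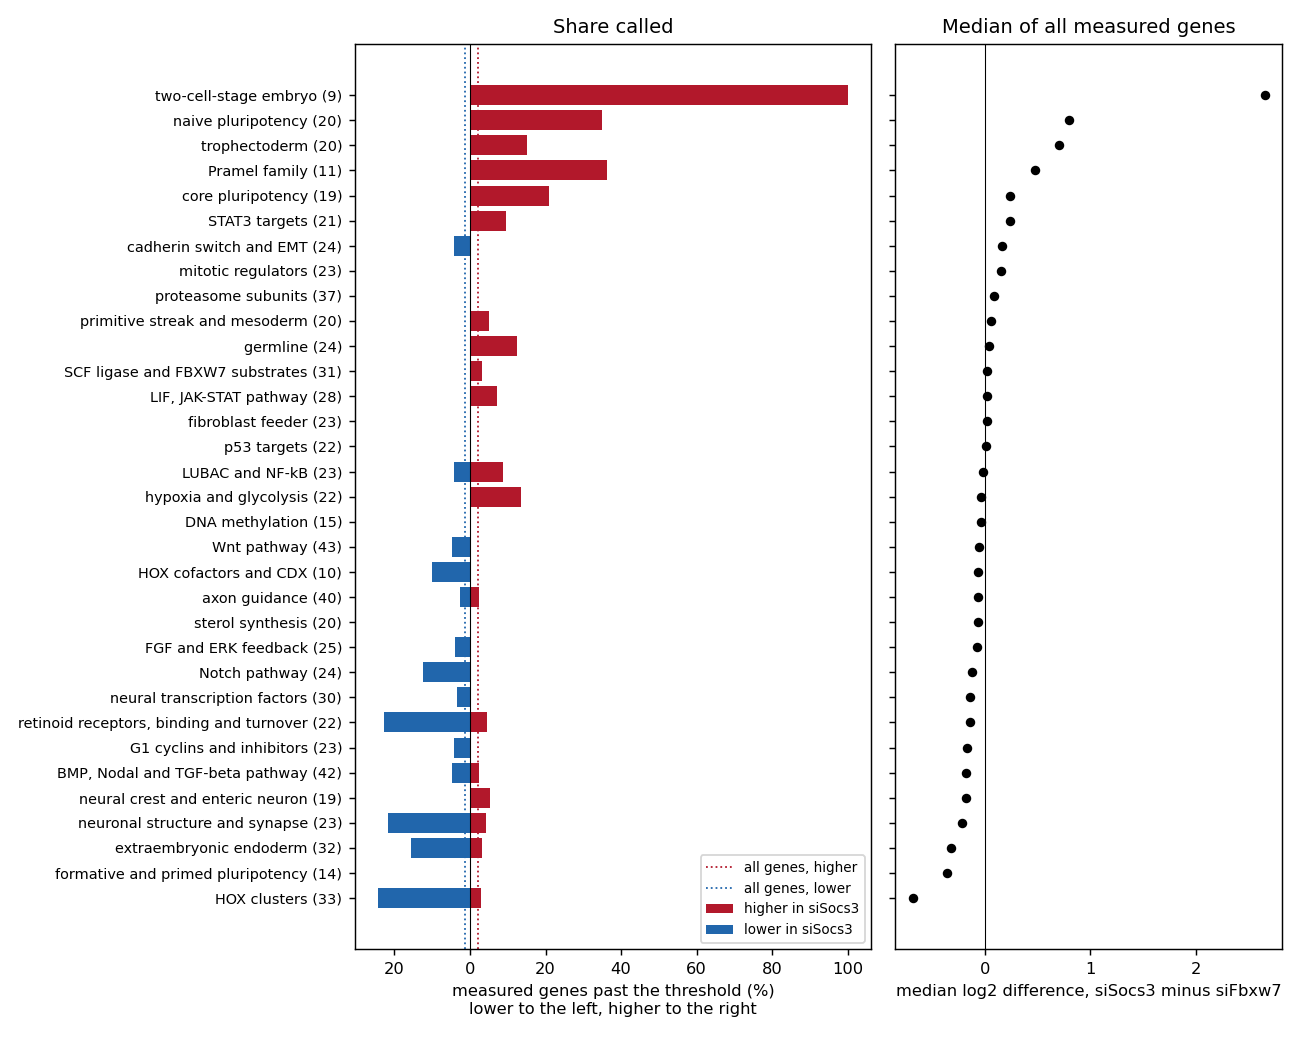
Left, share of the measured genes of each list past the threshold (%; lower in siSocs3 to the left, higher to the right; number measured in brackets), with dotted lines at the shares over all genes (2.09% and 1.41%). Right, median log2 difference of all measured genes of the list; the 2-cell-stage list lies highest (2.65) and the HOX list lowest (-0.68).

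Of 22 measured retinoid genes 5 were lower on the siSocs3 arrays, 1 was higher and 16 did not pass, with a median of -0.14. Crabp2, which carries retinoic acid to its receptors, read 12.57 and 11.90 against 10.03 and 10.49 (-1.98 ± 0.38, adjusted p = 0.0264). Cyp26b1, an enzyme that degrades retinoic acid, read 9.89 and 9.23 against 7.94 and 7.93 (-1.62 ± 0.24, adjusted p = 0.00929). Its relative Cyp26a1 was among the brightest genes of the array in both groups, with 13.04 and 12.83 against 12.88 and 12.71, and overlapped (-0.14 ± 0.14, adjusted p = 0.669). Dhrs3, which turns retinal back to retinol, differed by -1.18 ± 0.24, and Stra8, a germ cell gene named for its response to retinoic acid, by -0.57 ± 0.11. Among the receptors, Rarb read 9.69 and 9.39 against 8.78 and 8.83 (-0.73 ± 0.13, adjusted p = 0.0186). Rxra went the other way, from 7.51 and 7.34 to 8.23 and 8.01 (0.70 ± 0.12). Rara (-0.16 ± 0.17) and Rarg (0.28 ± 0.18) did not pass. The siFbxw7 arrays differed along this list, with replicate 1 above replicate 2 in 19 of 22 genes. No retinoid gene was called lower without siFbxw7 replicate 1, without siSocs3 replicate 1 or without siSocs3 replicate 2, 4 were without siFbxw7 replicate 2, and 1 was without both arrays of high actin difference. Without siFbxw7 replicate 1 the median of the list was -0.01.

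Of the 18 retinoid genes with a promoter window, Rarb and Cyp26a1 are the 2 that hold the 1 spelling of the retinoic acid response element searched. Other spellings and spacings were not searched. The 2 genes are shown because 1 was lower in siSocs3 and the other did not pass. The windows run from 250 bases before to 50 after the gene start (RefSeq, GRCm38.p6). The search took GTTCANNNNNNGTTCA, a direct repeat with 6 free bases, on both strands. It was found in 25 of 32851 windows (0.0761%), in 2 of 34 windows of the retinoid list, in 1 of 291 windows of genes called lower and in 0 of 369 of genes called higher. Capitals mark the element. The Rarb stretch is chr14:16575477-16575568 on the minus strand, and in it the element lies at -52 to -37 from the gene start. The Cyp26a1 stretch is chr19:37697736-37697807 on the plus strand, and there the element reads on the opposite strand at -32 to -17.
Rarb: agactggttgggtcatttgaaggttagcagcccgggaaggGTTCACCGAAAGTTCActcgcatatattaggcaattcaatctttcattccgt
Cyp26a1: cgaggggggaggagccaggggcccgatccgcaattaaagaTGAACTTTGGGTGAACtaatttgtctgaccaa
A match describes the letters of the window and says nothing of binding in these cells.

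HOX genes, which give cells of the trunk and hindbrain their position and are switched on in order by retinoic acid, were the list with the lowest median (-0.68). Of 33 measured genes 8 were lower and 1 higher, and estimates were below 0 in 27. Hoxb6 had the largest fall among named genes, from 9.88 and 8.65 to 6.62 and 6.98 (-2.46 ± 0.52, 5.50-fold, adjusted p = 0.0392). The 2 siFbxw7 arrays differed by more than 2-fold in this gene, though both lay above siSocs3. Hoxc8 read 9.16 and 8.16 against 6.42 and 6.82 (-2.04 ± 0.29, adjusted p = 0.00801), and Hoxb3 read 9.04 and 8.27 against 6.94 and 7.19 (-1.59 ± 0.31). Hoxb2 differed by -1.24 ± 0.28 (adjusted p = 0.0499), Hoxa3 by -0.98 ± 0.18 and Hoxc10 by -0.96 ± 0.20. Outside the rule for named genes, Hoxc9 (-0.91 ± 0.17) and Hoxa5 (-0.77 ± 0.13) were lower, and Hoxa7 was the 1 HOX gene that was higher (0.43 ± 0.09, adjusted p = 0.0393). Hoxb1, an early retinoic acid target of the hindbrain, fell just short (-1.11 ± 0.25, adjusted p = 0.0504). Hoxb5os, an opposite-strand transcript at Hoxb5, was lower (-2.15 ± 0.45), and Hoxb5 itself had a difference of the same size that did not pass (-2.09 ± 0.52, adjusted p = 0.0687); whether the probe sets separate the strands was not tested. The arrays of the 2 groups did not overlap, siSocs3 lower, in 24 of the 33 genes, beside 24.5% of all genes. Calls of lower HOX genes numbered 12 without siFbxw7 replicate 2, 1 without siFbxw7 replicate 1, 2 without siSocs3 replicate 2, 0 without siSocs3 replicate 1 and 2 without both arrays of high actin difference.

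Among the partners and regulators of HOX proteins, Meis2 was the 1 gene of 10 past the threshold, from 10.88 and 10.16 to 8.73 and 9.05 (-1.63 ± 0.29, adjusted p = 0.0204). Pbx3 had -0.98 ± 0.22 (adjusted p = 0.0506), and the median of the list was -0.06.

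Neural transcription factors mostly did not pass. Zic1, a zinc finger factor of the neural plate, was the 1 of 30 that did, from 7.76 and 7.20 to 5.30 and 6.23 (-1.72 ± 0.31, adjusted p = 0.0206). Sox1, the earliest marker of neural progenitors, had a larger but less certain difference, with 8.25 and 7.39 against 5.26 and 5.61 (-2.39 ± 0.58, adjusted p = 0.0614). Pax6 behaved likewise, with 8.64 and 7.62 against 6.71 and 6.94 (-1.30 ± 0.32, adjusted p = 0.0638). In Sox1 and Pax6 the siSocs3 arrays lay below the other 8, and siFbxw7 replicate 1 read above replicate 2. Sp8, a zinc finger factor of limb and forebrain patterning, is on no list. Among genes that passed, clone names left out, Sp8 had the next largest fall after Hoxb6, from 7.69 and 7.30 to 5.00 and 5.46 (-2.26 ± 0.34, adjusted p = 0.00971). Nfib (-1.68 ± 0.34) and Tox3 (-1.71 ± 0.35), both transcription regulators, and Rasgrp3, an activator of RAS proteins (-1.76 ± 0.25), were also among the 15 largest falls.

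Neuronal structure genes moved in both directions, with 5 of 23 lower, 1 higher and a median of -0.21. Gap43, a growth cone protein, read 9.76 and 10.39 against 8.45 and 8.72 (-1.49 ± 0.25, adjusted p = 0.0155). The neurofilament-like gene Ina differed by -1.08 ± 0.23, Rtn1 by -0.87 ± 0.19, Map2, a dendrite microtubule protein, by -0.82 ± 0.17 and the synaptic calcium sensor Syt1 by -0.74 ± 0.16. Mapt, which encodes the axonal microtubule protein tau, went up instead, from 5.20 and 5.85 to 6.51 and 6.70 (1.08 ± 0.20). Without siSocs3 replicate 1 none of the 23 passed. In the guidance and crest lists, Plxna2, a semaphorin receptor (-1.55 ± 0.35), Dcc, a netrin receptor (0.73 ± 0.13), and Erbb3, a neuregulin receptor (1.13 ± 0.25), were the only calls among 40 and 19 genes. The call of Plxna2 held in 1 of the 10 fits with an array left out and that of Erbb3 in 2. Ednrb, the endothelin receptor of crest cells, had -1.79 ± 0.49 and did not pass. The summed intensity of the 6 fixed neural markers (Sox1, Pax6, Nes, Tubb3, Map2, Ncam1) was 1288 to 1850 in siFbxw7 and 771 to 972 in siSocs3. Of the 6, only Map2 passed. Their group means ran from log2 6.31 to 8.61 in siFbxw7 and from 5.44 to 8.36 in siSocs3, so the sums lean on the bright markers.

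In the pathway that SOCS3 restrains, 2 of 28 LIF and JAK-STAT genes were higher (7.14%, beside 2.09% of all genes). None was lower and the median was 0.02. Stat3 read 9.37 and 9.05 against 9.16 and 9.50, overlapping (0.12 ± 0.20, adjusted p = 0.811), and the LIF receptor Lifr read 8.12 and 8.45 against 8.25 and 8.22 (-0.06 ± 0.16). The kinase Jak1 had 0.13 ± 0.18 and the shared receptor Il6st -0.24 ± 0.13. Stat6 (0.77 ± 0.14) and Stat5a (0.71 ± 0.16) were higher. Stat5a read 5.59 and 5.34 in siFbxw7, below the other 8 arrays, and 5.96 and 6.39 in siSocs3, within their range. Of 21 STAT3 target genes 2 were higher (9.52%, beside 2.09% of all genes), with a median of 0.24. Sgk1, a kinase gene, read 9.50 and 10.01 against 11.92 and 11.55 (1.98 ± 0.30, adjusted p = 0.0105), and Bcl3, a partner of NF-kB, read 7.66 and 7.70 against 8.44 and 8.21 (0.65 ± 0.12). The others included Pim1 (-0.22 ± 0.21), Junb (0.32 ± 0.22) and Myc (-0.42 ± 0.16), which did not pass. Klf4 and Tfcp2l1, given above, are also on this list. Estimates were above 0 in 14 of the 21 target genes and below 0 in 7. The groups did not overlap in 11 of them with siSocs3 higher and in 2 with siSocs3 lower, beside 25.1% and 24.5% of all genes. Both target calls were lost without siFbxw7 replicate 1 and without siSocs3 replicate 1, and both JAK-STAT calls without siFbxw7 replicate 1, siSocs3 replicate 1 or siSocs3 replicate 2.

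The STAT element TTCNNNGAA, an inverted repeat with 3 free bases, was searched on both strands of the same windows and gave no larger share among the genes called. It lay in 2726 of 32851 windows (8.30%) and in 7.21% of the windows of genes tested, against 22 of 369 windows of higher genes (5.96%) and 15 of 291 of lower genes (5.15%). Socs3 and Bcl6 are shown, Socs3 as the targeted gene and Bcl6, a repressor known as a STAT target, because its windows hold 4 elements; it was picked after its values were seen. Bcl6 read 5.47 and 5.65 on the siFbxw7 arrays, below the other 8, and 6.61 and 6.58 on the siSocs3 arrays, above them (1.04 ± 0.15, adjusted p = 0.00817). Its other probe set gave 0.23 ± 0.11. Capitals mark the element, all stretches are on the minus strand, and the 2 Bcl6 stretches belong to different starts of the gene. The Socs3 stretch is chr11:117969492-117969540, and the Bcl6 stretches are chr16:23988942-23988990 and chr16:23981343-23981471.
Socs3: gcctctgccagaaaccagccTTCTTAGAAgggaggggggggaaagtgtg
Bcl6, upstream start: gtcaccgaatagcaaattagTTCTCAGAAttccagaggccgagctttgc
Bcl6, downstream start: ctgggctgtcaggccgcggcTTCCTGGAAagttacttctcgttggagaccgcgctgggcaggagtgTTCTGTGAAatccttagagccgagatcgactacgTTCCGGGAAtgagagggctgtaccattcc
In Rarb, the letters of a STAT element at -51 to -43 overlap the retinoic acid element.

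Of 31 measured transcripts of FBXW7 substrates and ligase partners 1 passed (3.23%, close to the 3.51% of all genes). It was Klf2, a naive pluripotency factor that also stands in that list (10.58 and 10.76 against 11.57 and 11.39). The median was 0.02. Cyclin E1, the best known substrate, read 11.00 and 10.95 against 11.11 and 11.20 (Ccne1, 0.18 ± 0.10), and Jun read 9.27 and 9.45 against 9.41 and 9.39 (0.04 ± 0.17). Notch1 had -0.53 ± 0.17, Aurka 0.53 ± 0.14 and Cebpa 0.62 ± 0.15, and none of these passed. Among the ligase partners, Skp1 was at 0.08 ± 0.10 and Cul1 at -0.06 ± 0.09. The arrays do not measure protein, on which FBXW7 acts.

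A smaller set of genes stood apart on the siFbxw7 side of the pair, the basement membrane genes Lama1, Col4a1 and Col4a2 among them. The other basement membrane genes measured did not pass. Over all 21 the median was -0.12, with 12 estimates below 0 and 9 above, such as Nid1 (0.61 ± 0.17). Of 32 extraembryonic endoderm genes 5 were lower in siSocs3, 1 was higher and the median was -0.32. Lama1, the laminin chain of the earliest basement membranes, read 9.74 and 9.81 in siFbxw7 against 7.79 and 7.97 in siSocs3 (-1.89 ± 0.34, adjusted p = 0.0200). The siNonTarget arrays lay between them, at 9.61 and 8.42. Against siNonTarget, Lama1 differed by 0.76 in siFbxw7 and by -1.14 in siSocs3, and neither passed. The type IV collagen chains Col4a1, at 10.97 and 11.61 against 10.18 and 10.42, and Col4a2, at 9.17 and 9.72 against 8.54 and 8.70, had siFbxw7 above the other 8 arrays while siSocs3 lay within their range (-0.99 ± 0.21 and -0.82 ± 0.16). Foxq1, a forkhead factor, did the same (-1.29 ± 0.21, adjusted p = 0.0138). Foxa2, a factor of endoderm, differed by -0.90 ± 0.20 (adjusted p = 0.0499). Of the defining endoderm factors, Gata6 (-0.78 ± 0.22), Gata4 (-0.37 ± 0.29) and Sox7 (-1.65 ± 0.42) did not pass. Rhox5, a homeobox gene of the X chromosome, was the 1 member that was higher (1.18 ± 0.17). None of these genes passed for siFbxw7 against siNonTarget. The 5 lower calls became 3 without siFbxw7 replicate 1, 2 without siFbxw7 replicate 2, 1 without siSocs3 replicate 2 and 0 without siSocs3 replicate 1.

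Over the 8 fixed endoderm markers (Gata4, Gata6, Sox7, Dab2, Lama1, Col4a1, Afp, Ttr) the summed intensity was 4359 to 6171 in siFbxw7, 2480 to 2821 in siSocs3 and 3304 to 3539 in siNonTarget. Lama1 and Col4a1, described above, are 2 of these markers. Over the other 6, none of which passed, the sum was 1498 to 2148 in siFbxw7, 1099 to 1200 in siSocs3 and 1216 to 1483 in siNonTarget. Afp lay near the bottom of the scale in both groups, at 3.93 and 3.96 against 3.88 and 4.31. The part of endoderm cells in the other differences was not tested. The 9 fixed fibroblast feeder markers had sums of 1113 to 1350 in siFbxw7 and 1166 to 1310 in siSocs3, and 0 of the 23 genes of the feeder list passed in limma (5 at an unadjusted p under 0.05).

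**Figure D5:**
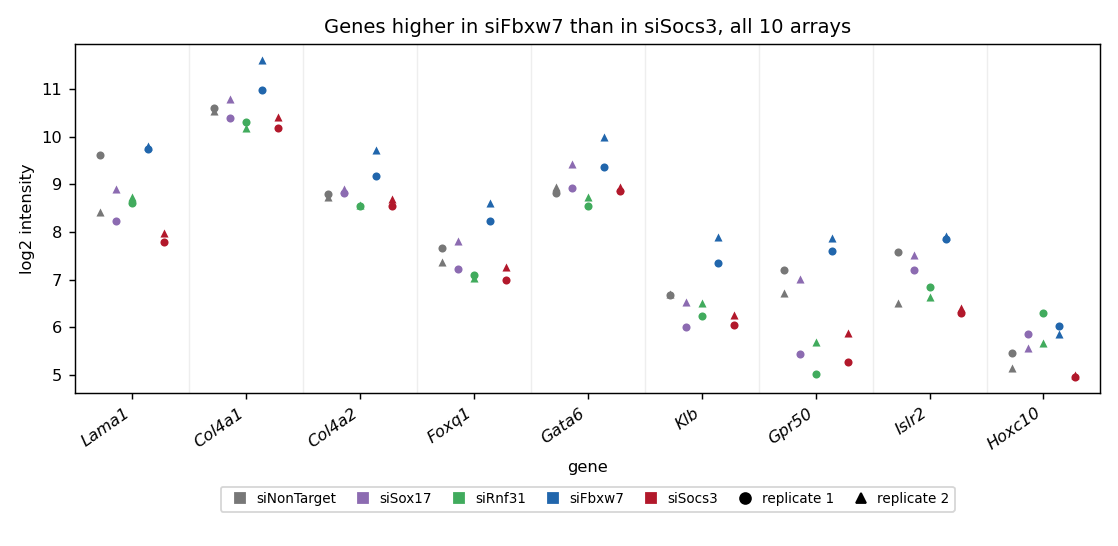
Log2 intensity of 9 genes with a lower mean in siSocs3 than in siFbxw7, on all 10 arrays, coloured by siRNA group, with circles for replicate 1 and triangles for replicate 2. In 7 of the 9 genes called or shown (Lama1, Col4a1, Col4a2, Foxq1, Klb, Gpr50, Islr2) both siFbxw7 arrays lie above all other arrays; Gata6, which did not pass, and Hoxc10 are shown for comparison.

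Other genes with the siFbxw7 arrays outside the range of the other 8 came from both directions. Among lower genes, the melatonin receptor relative Gpr50 read 7.60 and 7.87 in siFbxw7 against 5.27 and 5.88 in siSocs3 (-2.16 ± 0.45). Klb, the FGF co-receptor beta-klotho, read 7.34 and 7.89 against 6.04 and 6.26 (-1.46 ± 0.21), and the neuronal surface gene Islr2 had -1.53 ± 0.28. Among higher genes siFbxw7 was the lowest group. Lonp2, a peroxisomal protease, read 9.40 and 9.38 against 11.39 and 11.13 (1.87 ± 0.16), and Elobl, an elongin B-like gene, read 5.86 and 5.76 against 7.76 and 7.56 (1.84 ± 0.13). The ETS factor Spic (1.63 ± 0.15), Calml4 (1.49 ± 0.21) and the growth factor binding protein Igfbp3 (1.27 ± 0.13) completed the 5 largest, clone names left out. Most of their difference lay on the siSocs3 side. Against siNonTarget these 5 genes differed by 0.94 to 1.45 in siSocs3 and by -0.49 to -0.33 in siFbxw7, and none passed for siFbxw7. All 5 kept their calls with any array left out.

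The smallest adjusted p in limma was 0.00108, shared by the DNA helicase gene Mcm9, at 7.14 and 7.09 against 8.69 and 8.57 (1.52 ± 0.10), Popdc3, at 4.62 and 4.45 against 6.20 and 6.21 (1.67 ± 0.11), and Elobl. The sarcomere gene Mypn (1.15 ± 0.09), Arhgef26 (2.29 ± 0.19), Dcbld1 (1.64 ± 0.13), Srp54b of the signal recognition particle (1.30 ± 0.11) and Psors1c2 (1.29 ± 0.11) followed, with Tcstv3 and Fbxo15, described above, among them (adjusted p = 0.00114 and 0.00129). In the lower direction Vopp1, Cpe and Pgm2l1 came first. Cpe read 10.67 and 10.66 in siFbxw7 against 9.18 and 9.62 in siSocs3. Ttc9 (-0.82 ± 0.09; -0.47 and short of the threshold as the mean of its probe sets), the lactate dehydrogenase gene Ldhb (-1.03 ± 0.12), Gulp1, an adaptor for engulfing dead cells (-1.36 ± 0.16), Prrg1 (-0.87 ± 0.11), St7 (-1.03 ± 0.13), Cachd1 (-1.29 ± 0.16) and Armcx1 (-0.79 ± 0.10) each passed in 9 of the 10 fits with an array left out, all but that without siSocs3 replicate 1.

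Signalling pathways of the early embryo had scattered calls. Over all genes, 2.09% were higher and 1.41% lower. In the Notch list 3 of 24 genes were lower (12.5%) and none higher. They were Hes1, from 9.21 and 9.22 to 8.74 and 8.61 (-0.54 ± 0.10), Hes6 (-0.58 ± 0.10) and Id2 (-0.77 ± 0.16). Id2 is more a BMP target than a Notch target. No receptor or ligand of the pathway passed, and without siFbxw7 replicate 1 or siSocs3 replicate 1 no gene did. Of 43 Wnt genes the receptors Fzd8 (-0.86 ± 0.14) and Fzd6 (-0.62 ± 0.12) were lower, and Sfrp2, a secreted inhibitor, spread too widely to pass, with 9.93 and 8.04 against 7.13 and 7.43. Among 42 BMP, Nodal and TGF-beta genes Tdgf1 was higher and Msx1 (-0.99 ± 0.18) and Id2 were lower. Of 25 FGF genes Phlda1 (-0.76 ± 0.15) was lower, and the ERK phosphatase Dusp6 had -0.87 ± 0.21 and did not pass. In the NF-kB list of 23, Rel (0.89 ± 0.20) and Bcl3 were higher and the kinase Ikbkb (-0.54 ± 0.10) was lower. Gsc, a homeobox factor of the organizer, was the 1 of 20 streak and mesoderm genes that passed, from 3.78 and 4.11 to 5.21 and 5.06 (1.19 ± 0.15), and Cdh2, the neural cadherin, the 1 of 24 adhesion genes (-1.30 ± 0.23). Medians of these lists lay between -0.18 and 0.16.

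Growth and housekeeping lists varied in their calls. Over all genes, 2.09% were higher and 1.41% lower. The G1 cyclin Ccnd2 read 11.29 and 10.35 against 9.04 and 9.09 (-1.76 ± 0.38, adjusted p = 0.0404). It was the 1 of 23 G1 genes that passed (4.35%). It was lost in 7 of the 10 fits with an array left out. Ccnd3 had 0.39 ± 0.10 and did not pass. Of 22 hypoxia and glycolysis genes 3 were higher (13.6%), with a median of -0.03. They were Ndrg1, from 5.98 and 6.26 to 7.58 and 7.51 (1.43 ± 0.14, adjusted p = 0.00185), Ankrd37 (1.13 ± 0.20) and the glycolytic enzyme Pfkp (0.93 ± 0.18). None of 23 mitotic genes (6 at an unadjusted p under 0.05; median 0.15), 22 p53 targets (2; 0.01), 20 sterol synthesis genes (0; -0.06) and 37 proteasome subunits (2; 0.09) passed in limma. The p53 target Cdkn1a, which stops the cell cycle, had -0.51 ± 0.18.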

How the data were processed

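Total RNA of 10 samples was read on mouse expression arrays. The deposited values are linear intensities. RMA is the method that the submitters' processing notes name; its version is not given in the sources used here. RMA fits background, quantile and probe effects over all arrays together, so no array is independent of the rest. The log2 of the deposited intensities was taken. Of 45101 probe sets, 34958 have 1 symbol, 932 several and 9211 none here, and each gene took its probe set of highest mean, which left 18194 genes.

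limma 3.58.1 in R 4.3.3 fitted 1 mean per siRNA group over all 10 arrays (5 residual and 3.98 prior degrees of freedom), with Benjamini-Hochberg adjustment over all genes and a threshold of 0.05. An exact permutation test of 2 arrays against 2 cannot reach 0.05 and was not used. Figures used Python 3.11.15 and matplotlib 3.10.9.

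The genes compared and the lists were chosen with earlier results of these data known. Genes were named by rule: the targets, the 15 largest changes and the 10 smallest p-values in each direction, up to 6 called members of each list by size (else the 2 of smallest p), fixed genes, and up to 5 genes in each direction with siFbxw7 outside the other 8 arrays. Other genes shown, Bcl6 and the families of the closing section were chosen after their values were seen. Promoter windows are RefSeq's, GRCm38.p6.

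Alternatives were the replicate block, the groups in the fit, normalization, filters on dim genes, the prior, the rule for probe sets, an added 16 before the log, a 2-fold minimum and each array left out. Whether the replicate numbers pair the samples was not settled. Deviations of same-numbered arrays correlated from -0.26 to 0.42 between groups, and were highest for siNonTarget with siFbxw7.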

Additional observations from a re-analysis of the deposited data

Results flagged for a closer look

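In 30 of the 115 named genes that passed (26.1%), both siSocs3 arrays and both siFbxw7 arrays lay on opposite sides of both siNonTarget arrays. So did 173 of the 638 genes that passed (27.1%) and 566 of all 18194 (3.11%), so the named genes do not stand out among those that passed. The arrangement uses the same arrays as the call. That the 2 siRNAs differ is the call of the direct comparison itself; siFbxw7 against siNonTarget passed in none of them. Values are siSocs3 minus siFbxw7 on the log2 scale.

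The genes included Usp17la (2.56), Obox6 (2.65), Pramel18 (3.08), Spz1 (2.77), Spesp1 (2.72) and Speer4cos (2.73). Pluripotency factors were Fbxo15 (1.86) and Sall4 (0.48). The homeobox and ETS factors Gsc (1.19) and Spic (1.63) lay on the same side. So did the helicase gene Mcm9 (1.52), Popdc3 (1.67), Elobl (1.84), the peroxisomal protease Lonp2 (1.87), Calml4 (1.49), Igfbp3 (1.27), the chemokine Ccl3 (2.77), Ankrd37 (1.13) and the glycolytic enzyme Pfkp (0.93).

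In the other direction lay the basement membrane genes Lama1 (-1.89), Col4a1 (-0.99) and Col4a2 (-0.82), the factors Foxq1 (-1.29), Hoxc10 (-0.96) and Msx1 (-0.99), and the receptors Gpr50 (-2.16) and Klb (-1.46). Islr2 (-1.53), the synaptic gene Syt1 (-0.74) and the lactate dehydrogenase gene Ldhb (-1.03) completed them.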

How the results depend on the processing

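Leaving out 1 array at a time gave 81 to 898 genes changed, 78 to 460 higher and 3 to 438 lower, against 638, 381 and 257. With the siSocs3 and siFbxw7 arrays alone the counts were 307, 215 and 92. With siNonTarget added to them, chosen after seeing the data, they were 290, 214 and 76. Without both arrays of high actin difference, also chosen after seeing the data, they were 218, 156 and 62. A 2-fold minimum, by its construction, gave 250, 181 and 69. Of every probe set with 1 symbol, 914 were called, 575 of them higher. Quantile normalization gave 618 genes, median centring 612, a filter on the dimmest 30% 625 and on the dimmest 50% 530, a trended prior 680, 16 added before the log 650 and the mean of probe sets 544. The median of all genes moved by at most 0.008 (log2). No named gene that passed in the main fit or in an alternative changed sign between them. Among named genes that passed in neither, some changed sign, at most 5 in a fit (without siFbxw7 replicate 2). The cause of the changed counts was not tested.

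The replicate block gave 545 genes, 342 higher and 203 lower. On the 4 arrays alone, added after seeing the data, it gave 166, 133 and 33, and the crossed pairing there gave 807, 408 and 399. Deviations of same-numbered arrays correlated at r = -0.11 between siSocs3 and siFbxw7. Of 115 named genes that passed, 13 did not pass with the block.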

Other observations

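Families outside the lists were looked up after their values were seen, so their counts are descriptions. Over all genes, 2.09% were higher and 1.41% lower. Of 16 Hedgehog genes 4 were lower in siSocs3 and none higher, with a median of -0.29. Estimates were below 0 in 12 and above 0 in 4. Gli1 (0.03 ± 0.25) and Ptch1 (-0.12 ± 0.3) overlapped between the groups and did not pass. Gas1, a co-receptor, read 12.13 and 11.63 in siFbxw7 against 10.11 and 10.45 in siSocs3 (-1.60 ± 0.23). Hhip, the pathway's decoy receptor, differed by -1.64 ± 0.28, the transducer Smo by -0.95 and the acyltransferase Hhat by -0.67. Of 6 ARMCX genes, a family of the X chromosome, 4 were lower (Armcx1 -0.79, Armcx3 -0.90, Armcx4 -0.66, Armcx6 -0.55).

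On the higher side, 8 of 18 small RNA pathway and oocyte genes passed, with a median of 0.48. They were Tex19.1 (1.41 ± 0.13), Gtsf1l (1.14), Gtsf1 (1.10), Tdrd12 (0.99), Tex19.2 (0.93), Nlrp4c (0.92), Ooep (0.90) and Tle6 (0.85). Of 4 RHOX genes 3 were higher. Rhox6 read 7.19 and 7.33 against 9.60 and 9.44 (2.26 ± 0.23), Rhox9 differed by 1.97 ± 0.26 and Rhox5 by 1.18 ± 0.17. The SERPINB9 family of protease inhibitors had 4 of 5 higher (Serpinb9b 1.67 ± 0.20, Serpinb9g 1.55 ± 0.16, Serpinb9 0.91, Serpinb9d 0.67). Serpinb9g was dim in siFbxw7, at 2.91 and 3.10, a lower mean than that of Tcstv3, so its level there may be background. Serpinb9d, at 4.05 and 4.23, and Nlrp4c, at 3.89 and 3.93, were dim there too. Of 16 HSP70 and HSP90 genes 2 were higher, Hspa1a (7.67 and 8.11 against 10.09 and 9.49; 1.90 ± 0.25) and its close copy Hspa1b (1.0 ± 0.20). Probe sets of these families may read close copies. Of 21 basement membrane genes 3 were lower, Lama1, Col4a1 and Col4a2, with a median of -0.12.

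Probe sets without a single symbol held calls too. Over all 45101 probe sets 899 passed, 80 of them among the 9211 without a symbol here (63 higher, 17 lower) and 46 among the 932 with several (43 higher, 3 lower).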
